A study of Chlorocebus sabaeus with 3 samples.

Results

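The insulin-like growth factor (IGF) genes described here are the ligands IGF2 and IGF1, the long non-coding RNA H19, the receptors IGF1R and IGF2R, and the RNA-binding proteins IGF2BP1, IGF2BP2 and IGF2BP3. They were chosen by gene name, H19 being listed in the files as LOC103241849, and all 8 were found among 33994 genes. Cell-free RNA from the supernatant of vervet monkey (Chlorocebus sabaeus) amniotic fluid had been sequenced from a stillborn pregnancy (sex label M), a spontaneous abortion (sex label NA) and a pregnancy labelled alive (sex label F), with 1 library in each status group. No treatment or genotype is given for any of them, and neither gestational age nor the time between fetal death and sampling is given in the sources used here. With 1 library a group, the ratios below set library against library, carry no p-value, and have intervals that cover counting error only.

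IGF2 drives fetal and placental growth by binding the tyrosine kinase receptor IGF1R and a form of the insulin receptor, whereas IGF2R, the cation-independent mannose 6-phosphate receptor, carries IGF2 to lysosomes and so clears it. IGF2 and H19 lie side by side in mammalian genomes and are imprinted in opposite ways: IGF2 is transcribed from the paternal copy and H19 from the maternal copy, under an imprinting control region bound by CTCF. The IGF2BP proteins bind IGF2, H19 and many other RNAs, are abundant in fetal tissue and, for IGF2BP1 and IGF2BP3, are largely silent in most adult tissues. In the RefSeq gene table of the assembly mChlSab1.0.hap1, IGF2 and H19 are both on chromosome 1 with 0 genes between them, and the other 6 members are each on a different chromosome.

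Solved from the deposited values, assigned reads numbered 17749954 (stillborn), 29926352 (spontaneous abortion) and 20220899 (alive). These values are RPKM, reads scaled by gene length in kilobases and by the total of assigned reads. All 8 members gave whole reads, which are lower bounds because a factor shared by a gene's reads and its length cannot be seen. A ratio between libraries is that of the reads after scaling with TMM (trimmed mean of M-values) factors, with an exact Clopper-Pearson 95% interval. A gene was counted as past 2-fold when the ratio was at least 2-fold in either direction, the interval excluded 1 and the higher library had at least 30 reads.

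The fluids were dominated by the imprinted pair, while the other ligand had no more than 26 solved reads, a lower bound, in any library and the receptors were low. H19 ranked first and IGF2 second of all genes in each library. IGF2 stood at RPKM 34904 (stillborn), 26073 (spontaneous abortion) and 18289 (alive), and H19 at 38851 (stillborn), 35812 (spontaneous abortion) and 30528 (alive). The stillborn library was highest and the alive library lowest for both genes. IGF2 alone took at least 10.1% (stillborn), 7.55% (spontaneous abortion) and 5.30% (alive) of all assigned reads, and H19 at least 5.07% (stillborn), 4.67% (spontaneous abortion) and 3.98% (alive) (exact binomial 95% intervals at most 0.028 percentage points wide). In cell-free RNA, fewer contributing cells and less RNA released per cell cannot be told apart.

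**Figure D1:**
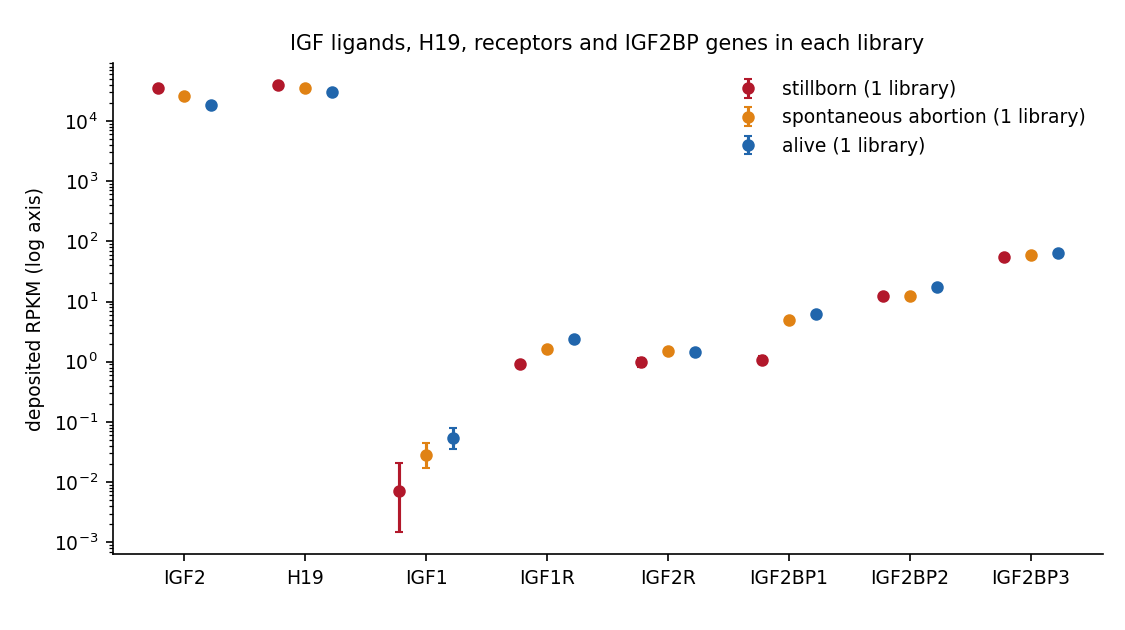
Deposited RPKM (log axis) of the 8 members, 1 point per library (stillborn, spontaneous abortion and alive) with exact Poisson 95% intervals that cover counting error only. IGF2 and H19 stand far above the other 6 genes in each library, IGF1 lies lowest, and IGF2BP1 in the stillborn library, at 1.06, stands apart from its points in the spontaneous abortion, at 5.004, and alive libraries, at 6.14.

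IGF1, the ligand that takes over growth control after birth, was at the limit of detection. It had 3 (stillborn), 20 (spontaneous abortion) and 26 (alive) reads, or RPKM 0.00718 in the stillborn library (Poisson 95% interval 0.00148 to 0.0210), 0.0284 in that of the spontaneous abortion (0.0173 to 0.0439) and 0.0546 in the alive one (0.0357 to 0.0801). The stillborn interval overlapped that of the spontaneous abortion and not that of the alive library. With fewer than 30 solved reads in every library, IGF1 was not counted as past 2-fold in any comparison. Its ratio was 0.147 for stillborn over alive (0.0284 to 0.479), 0.534 for spontaneous abortion over alive (0.283 to 0.995) and 0.275 for stillborn over spontaneous abortion (0.0523 to 0.927).

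The receptors were low in all 3 fluids. IGF1R was at RPKM 0.929 (0.855 to 1.01) in the stillborn library, 1.60 (1.52 to 1.68) in that of the spontaneous abortion and 2.41 (2.30 to 2.53) in the alive one. These 3 intervals did not overlap, and the alive library was highest. IGF2R was at RPKM 0.976 (0.829 to 1.14) in the stillborn library, 1.51 (1.37 to 1.67) in that of the spontaneous abortion and 1.43 (1.26 to 1.62) in the alive one. For IGF2R the stillborn library was lowest, and the intervals of the other libraries overlapped.

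Among the IGF2BP genes IGF2BP3 led, and IGF2BP2 and IGF2BP3 were far above the receptors in all 3 fluids. IGF2BP3 was at RPKM 54.3 (stillborn), 59.6 (spontaneous abortion) and 62.9 (alive), with ranks of 778 (stillborn), 704 (spontaneous abortion) and 730 (alive) among all genes. IGF2BP2 was at RPKM 12.4 (stillborn), 12.3 (spontaneous abortion) and 17.4 (alive). IGF2BP1 was at RPKM 1.06 (0.902 to 1.24) in the stillborn library, 5.004 (4.73 to 5.29) in that of the spontaneous abortion and 6.14 (5.77 to 6.52) in the alive one. IGF2BP1 in the stillborn library thus lay at the level of IGF1R and IGF2R, with overlapping intervals, while in the spontaneous abortion and alive libraries it was above both receptors.

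By RPKM the order in every library was H19, IGF2, IGF2BP3, IGF2BP2, IGF2BP1, the 2 receptors and IGF1. IGF1R and IGF2R did not differ beyond their intervals in the stillborn and spontaneous abortion libraries, and IGF1R was above IGF2R in the alive library. These orders between genes depend on the gene lengths behind the RPKM values, which the solved reads reveal. The implied lengths were 2.90 kb for IGF2, 1.30 kb for H19, 23.5 kb for IGF1, 34.5 kb for IGF1R, 9.01 kb for IGF2R, 8.39 kb for IGF2BP1, 20.3 kb for IGF2BP2 and 8.42 kb for IGF2BP3. Across genes with at least 200 reads and a RefSeq entry, the median implied length was 2.60 kb for the 3246 genes with 1 RefSeq transcript, 9.88 kb for the 876 genes with 4 and 20.6 kb for the 1750 genes with 6 or more. For 810 of these 9677 genes, or 8.37%, the implied length exceeded the whole span of the gene, introns included, in the mChlSab1.0.hap1 table. The build behind the files may differ from that table. IGF1 and IGF2BP2 have 4 RefSeq transcripts each and IGF1R has 2, while the other 5 members have 1, so a level of IGF1R, IGF1 or IGF2BP2 set beside another gene carries this length. A ratio of 1 gene between libraries does not contain the length.

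**Figure D2:**
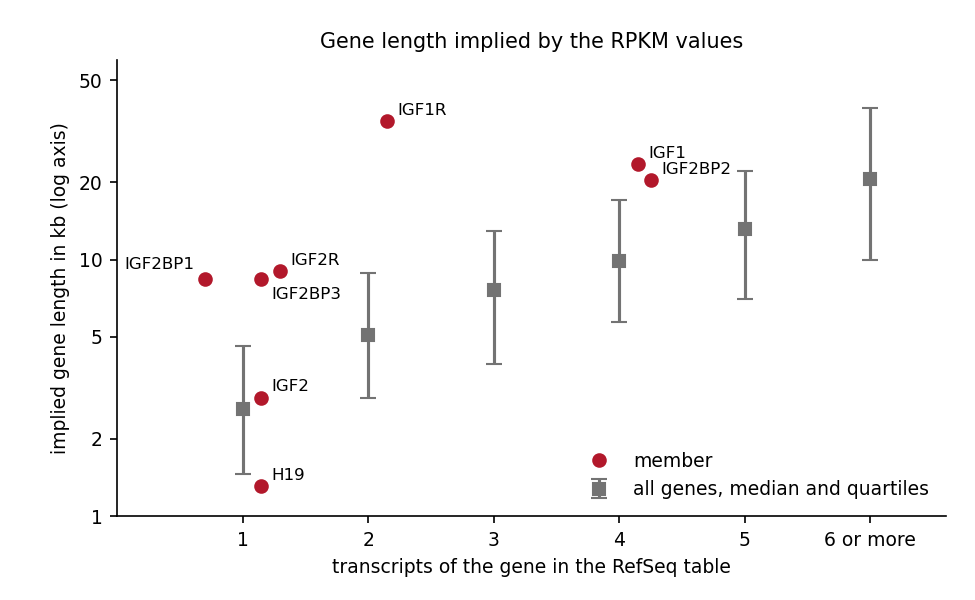
Gene length in kb (log axis) implied by the RPKM values, against the number of RefSeq transcripts of the gene. Squares and bars are the median and quartiles over all genes with at least 200 reads, and red points, set slightly aside for legibility, are the 8 members. The median implied length climbs with the number of transcripts, from 2.60 kb at 1 to 20.6 kb at 6 or more, and IGF1R lies highest among the members at 34.5 kb.

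Setting the stillborn against the alive library asks how the fluid of a stillbirth differed from that of a live pregnancy. IGF2 was past 2-fold as higher in the stillborn library, IGF1R and IGF2BP1 were past 2-fold as lower, and the other 5 members were not counted. Over all 13398 genes with at least 30 reads in the higher library, 25.6% were past 2-fold, 13.1% in the higher and 12.5% in the lower direction, so 3 of 7 members with enough reads stood beside a background of 25.6% of all genes. IGF2 was 2.13-fold higher (2.127 to 2.137). It was past 2-fold with TMM and with median-of-ratios scaling only, since total assigned reads gave 1.91, a common RPKM sum 1.75 and that sum without IGF2 and H19 1.85. H19 was 1.42-fold higher (1.418 to 1.426), and 1.16-fold to 1.42-fold over the 5 scalings.

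On the low side, IGF2BP1, which stabilises MYC and other growth-related mRNAs, had a stillborn level 5.18-fold below the alive one (4.38 to 6.16). Its reads numbered 158 (stillborn) against 1041 (alive), and 2.07% of all genes had a lower ratio. Past 4-fold it was the only member, beside 7.93% of genes. IGF1R was 2.32-fold lower (2.11 to 2.56), with 9.08% of genes below it. Both stayed past 2-fold under each of the 5 scalings, at 5.18-fold to 6.32-fold and 2.32-fold to 2.83-fold. IGF2R was 1.31-fold lower (1.07 to 1.61), IGF2BP2 1.25-fold lower (1.21 to 1.30) and IGF2BP3 1.04-fold lower (1.01 to 1.07), all short of 2-fold. Median log2 ratios over all genes were -0.19 for implied lengths over 16 kb and between -0.01 and 0.04 in every shorter class. Among genes with 1 RefSeq transcript they were -0.06 under 1 kb, 0.14 at 8 to 16 kb and -0.04 over 16 kb. Within the members' own length classes over all genes, 2.10% of genes lay below IGF2BP1, 10.1% below IGF1R and 86.6% below IGF2.

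**Figure D3:**
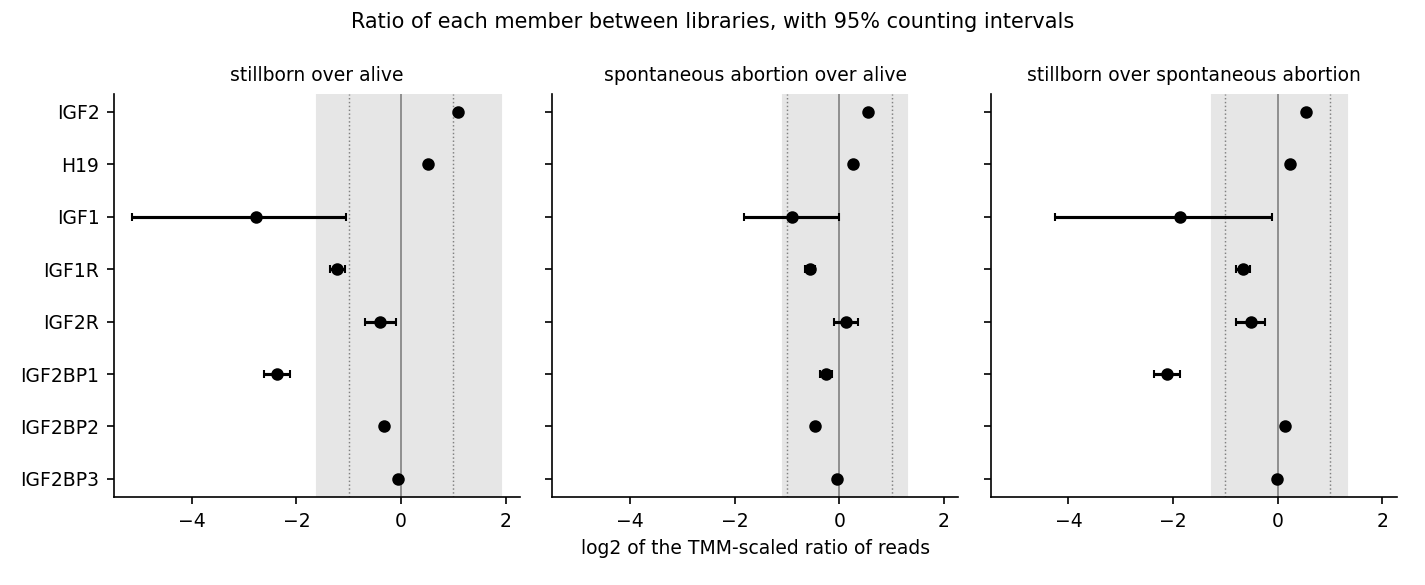
Log2 of the TMM-scaled ratio of reads for each member in the 3 comparisons, with exact 95% counting intervals (1 library per status). Grey bands hold the central 90% of all genes tested and dotted lines mark 2-fold. IGF2BP1 lies below the band for stillborn over alive, at 5.18-fold lower, and for stillborn over spontaneous abortion, at 4.34-fold lower, but inside it for spontaneous abortion over alive.

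Asked of the spontaneous abortion against the alive library, no member was past 2-fold, where 13.4% of 13750 genes were, 7.67% in the higher and 5.71% in the lower direction. Past 4-fold there were 0 members and 3.8% of genes. IGF2 was 1.47-fold higher than in the alive library (1.462 to 1.469) and H19 1.21-fold higher (1.202 to 1.209). IGF1R was 1.47-fold lower (1.37 to 1.57), IGF2BP2 1.38-fold lower (1.33 to 1.42) and IGF2BP1 1.19-fold lower (1.10 to 1.30). The interval of IGF2R, at a ratio of 1.09, included 1 (0.927 to 1.27). IGF2BP3 had a ratio of 0.974 (0.950 to 0.99895), which passed above 1, to 1.04, once libraries were scaled to a common RPKM sum without IGF2 and H19.

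Between the losses, 1 member was past 2-fold, beside 15.1% of 13755 genes, made up of 7.53% in the higher and 7.52% in the lower direction. IGF2BP1 was 4.34-fold lower in the stillborn than in the spontaneous abortion library (3.67 to 5.15). It kept between 4.29-fold and 5.39-fold over the 5 scalings and was the only member past 4-fold, beside 4.49% of genes. IGF1R was 1.58-fold lower (1.44 to 1.74) and IGF2R 1.43-fold lower (1.18 to 1.73). IGF2 was 1.46-fold higher (1.452 to 1.458). For H19 the ratio was 1.18 (1.176 to 1.182) and for IGF2BP2 1.10 (1.06 to 1.14), but both directions turned with a common RPKM sum, to 0.949 and 0.884.

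Order across the 3 libraries divided the members. After TMM scaling IGF2 and H19 were highest in the stillborn and lowest in the alive library, as were 24.4% of the 14032 genes with at least 30 reads in any library. IGF1, IGF1R, IGF2BP1 and IGF2BP3 ran the other way, highest in the alive and lowest in the stillborn library, as did 26.3% of genes. For IGF2BP3 the losses were not separated, as its ratio of stillborn over spontaneous abortion, 0.989, had an interval that included 1 (0.963 to 1.016). IGF2R was highest in the spontaneous abortion and lowest in the stillborn library, like 13.7% of genes, and IGF2BP2 highest in the alive and lowest in the spontaneous abortion library, like 10.5%. The IGF2R interval for spontaneous abortion over alive included 1 (0.927 to 1.27), so these libraries were not separated for IGF2R. The comparisons with the alive library share that library, so their directions are not independent.

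Ratios between members of the same library need no scaling between libraries. IGF2 per H19, by RPKM, was 0.898 (0.896 to 0.901) in the stillborn library, 0.728 (0.727 to 0.730) in that of the spontaneous abortion and 0.599 (0.597 to 0.601) in the alive one. H19 thus exceeded IGF2 in each fluid, by the smallest margin in the stillborn library and by the largest in the alive one. The gene lengths cancel when these ratios are set against each other. IGF1R per IGF2R was 0.953 (0.797 to 1.14) in the stillborn library, 1.05 (0.946 to 1.18) in that of the spontaneous abortion and 1.68 (1.48 to 1.92) in the alive one, and only the alive value stood clear of the others. IGF2BP3 per IGF2BP1 was 51.1 (43.7 to 60.2) in the stillborn library, 11.9 (11.3 to 12.6) in that of the spontaneous abortion and 10.2 (9.62 to 10.9) in the alive one. IGF2BP3 per IGF2BP2 was 4.36 (4.21 to 4.53) in the stillborn library, 4.85 (4.71 to 4.98) in that of the spontaneous abortion and 3.62 (3.51 to 3.73) in the alive one. The 3 IGF2BP genes are paralogs, and reads that the counting could not place in a single paralog cannot be told apart in these values. The strand setting of the counting is not known either, so antisense RNA over IGF2 or H19 may be included.

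**Figure D4:**
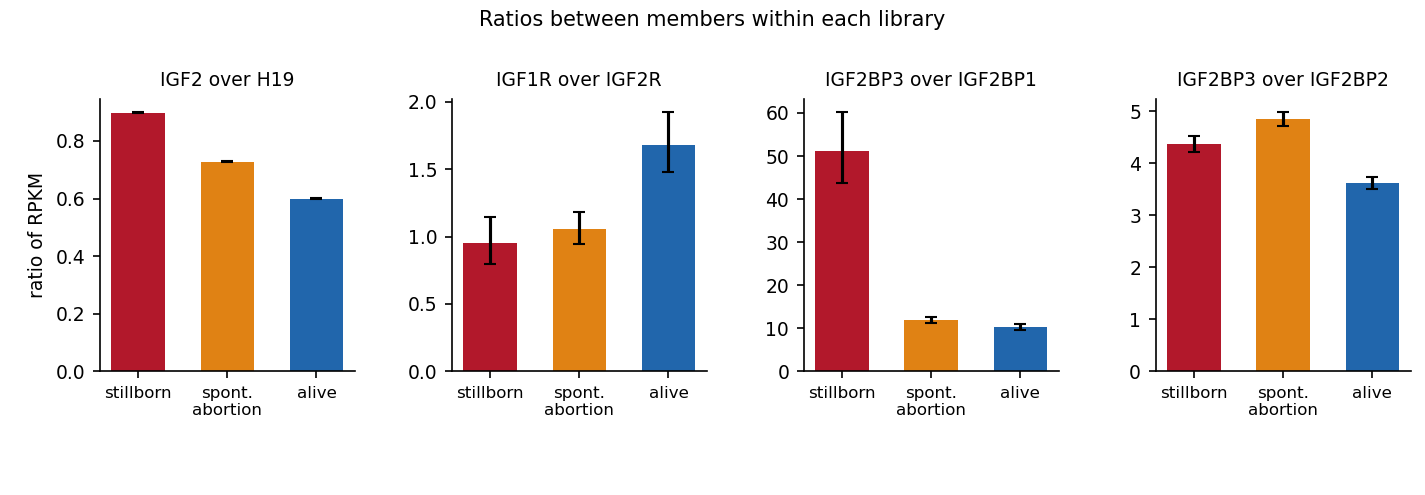
Ratio of RPKM between members of the same library of each status, 1 bar per library, with exact 95% counting intervals. IGF2 per H19 steps down from the stillborn library, at 0.898, to the alive library, at 0.599, and IGF2BP3 per IGF2BP1 is far higher in the stillborn library, at 51.1, than in the other libraries.

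The genes nearest in pattern to each gene of the imprinted pair were then sought. Likeness was the Euclidean distance between centred profiles of log2(TMM-scaled RPKM + 0.1) over the 3 libraries, among 3459 other genes that averaged RPKM 10 or more. Within a distance of 0.1 lay 38 genes (1.10%) for IGF2 and 115 (3.32%) for H19. The same count was not made for other genes, so these shares do not show whether either pattern is rare. Nearest to IGF2 were NUDT4, a diphosphoinositol polyphosphate hydrolase, at 0.0283, the small GTPase RAP1A at 0.0302, and ID2, an inhibitor of helix-loop-helix transcription factors, at 0.0353. Nearest to H19 were EMC4, a subunit of a membrane protein insertion complex, at 0.00369, TOR1AIP2, a torsin-binding membrane protein, at 0.0122, and LOC103247654 at 0.0150. With a pseudocount of 1, 1 of the 3 nearest genes was shared for each, and with a minimum mean RPKM of 1, 0 of 3 for IGF2 and 1 of 3 for H19.

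The genes that lie beside IGF2 and H19 did not share their level. MRPL23, a mitochondrial ribosomal protein gene next to H19, was at RPKM 5.84 (stillborn), 4.72 (spontaneous abortion) and 7.11 (alive). INS, the insulin gene and the nearest protein-coding gene to IGF2 on its other side, had 4 (stillborn), 8 (spontaneous abortion) and 3 (alive) reads. TH, tyrosine hydroxylase, next to INS, was at RPKM 1.06 (stillborn), 1.84 (spontaneous abortion) and 4.54 (alive), which made it 3.83-fold lower in the stillborn (3.10 to 4.76) and 2.40-fold lower in the spontaneous abortion (2.09 to 2.78) than in the alive library. On a list of 19 measured genes of the human 11p15 region, which holds IGF2 and H19, CDKN1C and CTSD had the highest mean RPKM. CDKN1C, an imprinted inhibitor of the cell cycle, was at RPKM 41.2 (stillborn), 47.3 (spontaneous abortion) and 38.1 (alive), and the lysosomal protease CTSD at 19.4 (stillborn), 11.5 (spontaneous abortion) and 8.50 (alive), which was 2.55-fold higher in the stillborn than in the alive library (2.25 to 2.90). SYT8, a synaptotagmin, was low, at RPKM 0.134 (stillborn), 0.0390 (spontaneous abortion) and 0.0180 (alive). It was 8.32-fold higher in the stillborn (4.803 to 15.4) and 2.22-fold higher in the spontaneous abortion (1.22 to 4.27), with 15 reads in the alive library. TSPAN32, a tetraspanin of blood cells, was also low, at RPKM 0.0822 (stillborn), 0.0719 (spontaneous abortion) and 0.0355 (alive). It was 2.59-fold higher in the stillborn (1.62 to 4.23) and 2.08-fold higher in the spontaneous abortion (1.34 to 3.32) than in the alive library. Of the 16 list genes with enough reads, the stillborn library had 4 past 2-fold on the higher side and 2 on the lower, and the spontaneous abortion library 2 and 1. Over all genes 13.1% were higher and 12.5% lower in the stillborn library, and 7.67% and 5.71% in the spontaneous abortion library.

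Of the wider pathway, members aside, 107 distinct genes had enough reads for stillborn over alive. Among them 6 were past 2-fold on the higher side and 17 on the lower, beside 13.1% and 12.5% of all genes. With a common RPKM sum these were 5 and 28, and for all genes 1751 higher and 1674 lower became 1243 and 2675. For spontaneous abortion over alive, 4 of 109 were higher and 7 lower, beside 7.67% and 5.71% of all genes.

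INSR, the insulin receptor, which also binds IGF2, was at RPKM 1.96 (stillborn), 2.16 (spontaneous abortion) and 3.11 (alive), within 2-fold. INSL4, a placental relative of insulin in primates, had 9 (stillborn), 58 (spontaneous abortion) and 0 (alive) reads. Against 3 reads taken in place of 0, it was at least 13.4-fold higher in the spontaneous abortion library, with 10.6-fold as the lower end of the counting interval. Of 9 measured genes on the list of insulin and its relatives, 3 were at 0 in all libraries.

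Of the 8 IGF binding protein genes, 7 had enough reads against the alive library. In each loss 3 were past 2-fold as lower and 0 as higher, beside 12.5% (stillborn) and 5.71% (spontaneous abortion) of all genes as lower, with a median log2 ratio of -0.22 in the stillborn and -0.21 in the spontaneous abortion library and -0.02 (stillborn) and 0.01 (spontaneous abortion) over all genes. IGFBP1, made by decidua and fetal liver, was at RPKM 11.0 (stillborn), 1.01 (spontaneous abortion) and 30.7 (alive), or 2.50-fold lower (2.26 to 2.76) in the stillborn library and 29.6-fold lower (23.7 to 37.4) in that of the spontaneous abortion. IGFBP5, which binds extracellular matrix, was at 1.43 (stillborn), 1.69 (spontaneous abortion) and 6.68 (alive), and IGFBP7, a low-affinity relative, at 0.302 (stillborn), 0.256 (spontaneous abortion) and 1.55 (alive). IGFBP5 was thus 4.19-fold lower in the stillborn (3.53 to 4.99) and 3.86-fold lower in the spontaneous abortion library (3.39 to 4.41), and IGFBP7 4.60-fold lower in the stillborn (2.04 to 12.2) and 5.90-fold lower in the spontaneous abortion library (2.91 to 13.2). IGFBP2, a binding protein of fetal serum, was at 7.40 (stillborn), 5.93 (spontaneous abortion) and 6.04 (alive), within 2-fold. Of genes that cleave the binding proteins or hold the proteases in check, MMP2 was at RPKM 18.8 (stillborn), 30.6 (spontaneous abortion) and 32.6 (alive), and HTRA1 at 6.45 (stillborn), 7.06 (spontaneous abortion) and 7.39 (alive). KLK3, a kallikrein that cleaves IGFBP3, had 4 (stillborn), 59 (spontaneous abortion) and 154 (alive) reads, or RPKM 0.0299, 0.261 and 1.01. It was 30.2-fold lower in the stillborn (11.6 to 112) and 3.76-fold lower in the spontaneous abortion (2.77 to 5.16) than in the alive library. Of the 7 genes of this list with enough reads, KLK3 was the 1 past 2-fold as lower in the stillborn library. In the spontaneous abortion library it was 1 of the 2. With a common RPKM sum 2 were lower in the stillborn library, while all genes lower went from 1674 to 2675.

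Downstream of the receptors, 14 of 14 RAS and MAPK genes stayed within 2-fold in every comparison after TMM scaling. Over all genes 25.6% were past 2-fold for stillborn over alive, 13.4% for spontaneous abortion over alive and 15.1% between the losses. With a common RPKM sum MAP2K1, named for that call, was past 2-fold as lower between the losses, while all genes lower went from 1035 to 1974. MAPK3, a kinase at the end of this cascade, was at RPKM 43.4 (stillborn), 43.8 (spontaneous abortion) and 48.5 (alive). On the IRS, PI3K and AKT list, 2 of 23 genes were higher and 4 lower in the stillborn, and 1 and 0 in the spontaneous abortion, against the alive library. Over all genes 13.1% were higher and 12.5% lower in the stillborn, and 7.67% and 5.71% in the spontaneous abortion library. With a common RPKM sum the list had 1 higher and 7 lower in the stillborn library. All genes then went from 1751 higher and 1674 lower to 1243 and 2675. RHEB, the GTPase that activates mTOR, was at RPKM 39.3 (stillborn), 38.1 (spontaneous abortion) and 30.5 (alive). FOXO1, a transcription factor held out of the nucleus by AKT, was higher in both losses, 2.49-fold in the stillborn (2.00 to 3.10) and 2.07-fold in the spontaneous abortion (1.69 to 2.55). Sorting by mannose 6-phosphate, the lysosomal route that IGF2R serves, had 0 genes past 2-fold in any comparison after TMM scaling. With enough reads were 11 for stillborn over alive and 12 in each other comparison, beside the same all-gene shares as for the RAS and MAPK genes. For stillborn over alive, AP1M1 was past 2-fold as lower with total assigned reads, and AP1M1 and VPS35 were with a common RPKM sum. All genes lower then numbered 2144 and 2675 in place of 1674. Its retromer subunits VPS35 and VPS26A were at RPKM 20.4 and 15.6 (stillborn), 34.7 and 18.9 (spontaneous abortion) and 39.9 and 18.8 (alive).

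The let-7 and LIN28 axis, which controls IGF2BP1 to IGF2BP3 and HMGA2 through their let-7 sites, had 3 of 7 genes past 2-fold on the lower side and 0 on the higher in the stillborn against the alive library, with a median log2 ratio of -0.87. Over all genes 12.5% were lower and the median was -0.02. With a common RPKM sum 5 of the 7 were lower, while all genes lower went from 1674 to 2675 and their median to -0.31. In the spontaneous abortion the list had 1 lower, beside 5.71% of all genes, and 0 higher, with a median of -0.29. HMGA2, a fetal chromatin protein, was at RPKM 0.485 (stillborn), 0.440 (spontaneous abortion) and 1.61 (alive), which is 2.97-fold lower (2.41 to 3.69) in the stillborn and 3.55-fold lower (2.97 to 4.27) in the spontaneous abortion library. DICER1, which cuts precursor miRNAs, was at 9.84 (stillborn), 18.5 (spontaneous abortion) and 20.0 (alive), and AGO2, the effector of miRNA silencing, at 3.54 (stillborn), 6.27 (spontaneous abortion) and 6.56 (alive). LIN28B, which blocks let-7 processing and was named after its values were seen, had 5 (stillborn), 4 (spontaneous abortion) and 0 (alive) reads.

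Of 14 mRNAs and proteins known as IGF2BP partners, 4 were past 2-fold on the lower side and 0 on the higher in the stillborn library, with a median log2 ratio of -0.53, and 1 and 0 in the spontaneous abortion library, with a median of -0.28. The shares of all genes on the lower side were 12.5% (stillborn) and 5.71% (spontaneous abortion). The lists share genes. HMGA2, on this list lower in both losses, is also counted on the let-7 list. TOP2A, another of the 4 and named after its values were seen, is also a proliferation marker. ACTB, the mRNA that IGF2BP1 carries in migrating cells, was at RPKM 663 (stillborn), 793 (spontaneous abortion) and 1063 (alive). YBX1, an RNA-binding partner, went the other way within 2-fold, at 433 (stillborn), 284 (spontaneous abortion) and 268 (alive). Among 10 genes that regulate transcription or the imprint of IGF2 and H19, 1 was past 2-fold as lower in the stillborn and 0 in the spontaneous abortion library. With a common RPKM sum 2 were lower in the stillborn library, while all genes lower went from 1674 to 2675. The highest were the transcription factor SP1, at RPKM 15.98 (stillborn), 22.3 (spontaneous abortion) and 21.9 (alive), and the imprint-protecting corepressor TRIM28, at 8.89 (stillborn), 13.9 (spontaneous abortion) and 18.0 (alive). Outside the naming rule and chosen after its values were seen, CTCF was at 7.60 (stillborn), 11.4 (spontaneous abortion) and 11.9 (alive), and DNMT1, the maintenance methyltransferase, was the gene that was lower, 3.12-fold in the stillborn library (2.83 to 3.45).

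**Figure D5:**
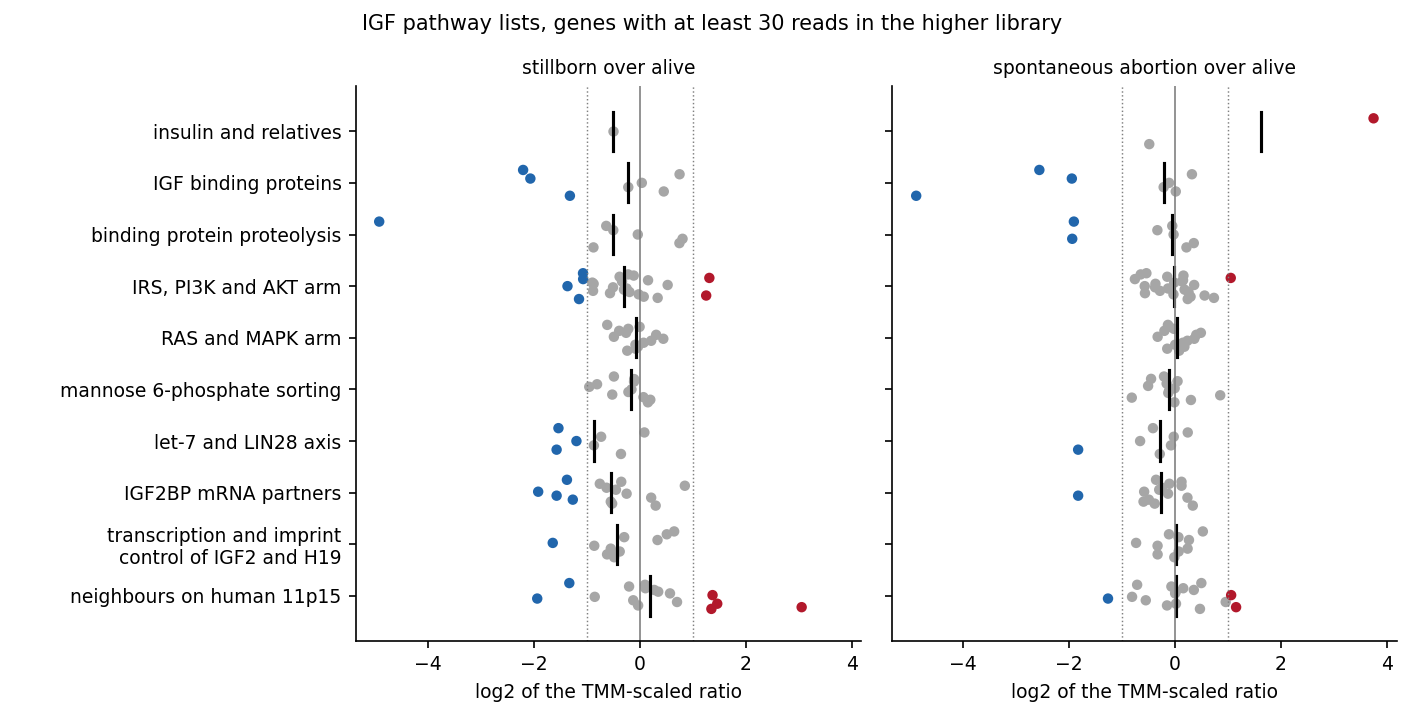
Log2 of the TMM-scaled ratio for each gene of the pathway lists with at least 30 reads in the higher library, for stillborn over alive (left) and spontaneous abortion over alive (right). Red points are past 2-fold as higher, blue points past 2-fold as lower, black bars are list medians and dotted lines mark 2-fold. RAS, MAPK and mannose 6-phosphate sorting genes stay within 2-fold on both sides, and 3 of 7 binding protein genes are lower in each loss, all after TMM scaling. Over all genes 25.6% (stillborn) and 13.4% (spontaneous abortion) are past 2-fold, with 12.5% and 5.71% as lower.

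Markers of cell types and of proliferation also differed between the libraries. Of 12 proliferation markers, 11 were past 2-fold as lower in the stillborn against the alive library, beside 12.5% of all genes, and 0 in the spontaneous abortion, beside 5.71%. They summed to RPKM 74.0 (stillborn), 183 (spontaneous abortion) and 234 (alive), beside the low IGF2BP1 of the stillborn library. Of 8 monocyte and macrophage markers with enough reads, 6 were higher and 0 lower in the stillborn library, beside 13.1% and 12.5% of all genes. In the spontaneous abortion library 0 of 5 were higher and 2 were lower, CD14 and FCER1G, beside 7.67% and 5.71%. The 11 measured summed to 59.7 (stillborn), 13.4 (spontaneous abortion) and 19.8 (alive).

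Some marker lists had sums carried by 1 gene, so that sum and calls differed in direction. The calls on these lists stand beside 13.1% higher and 12.5% lower over all genes in the stillborn library. In the spontaneous abortion library the all-gene shares were 7.67% and 5.71%. Mesenchymal markers summed to 3516 (stillborn), 3681 (spontaneous abortion) and 2473 (alive), of which VIM made up 3212 (stillborn), 3345 (spontaneous abortion) and 2231 (alive), whereas the stillborn library had 1 of 9 past 2-fold on the higher side and 3 on the lower, and the spontaneous abortion library 0 and 3. The higher one in the stillborn library was COL1A2, and the 3 lower ones in each loss were THY1, PDGFRB and POSTN. The list had a median log2 ratio of 0.137 (stillborn) and 0.465 (spontaneous abortion), beside -0.02 and 0.01 over all genes. Fetal liver markers summed to 220 (stillborn), 270 (spontaneous abortion) and 263 (alive), mostly APOA2, with AHSG at 0 throughout. Of 8 with enough reads, 3 were higher in the stillborn library, APOA1, APOB and SERPINA1, and 1 was lower, FGB. In the spontaneous abortion library 2 were higher, APOA1 and APOB, and 1 was lower, ALB. Their median log2 ratio was -0.165 (stillborn) and 0.385 (spontaneous abortion). Decidual markers summed to 15.997 (stillborn), 6.20 (spontaneous abortion) and 34.8 (alive), mostly IGFBP1 in the stillborn and alive libraries, while 2 of 6 were higher and 1 lower in the stillborn library and 4 were higher and 1 lower in the spontaneous abortion library.

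Of 9 measured trophoblast markers, CGA and CYP19A1 were at 0 in all libraries and the list summed to 69.8 (stillborn), 85.1 (spontaneous abortion) and 68.4 (alive). Of 4 with enough reads, 1 was higher in the stillborn library, XAGE2, and 0 were lower, beside 13.1% and 12.5% of all genes. In the spontaneous abortion library 2 of 5 were higher, GATA2 and XAGE2, and 0 were lower, beside 7.67% and 5.71%. Simple epithelial markers summed to 2209 (stillborn), 3000 (spontaneous abortion) and 3326 (alive), with 1 of 8 higher and 1 lower in the stillborn library. These calls stood beside 13.1% and 12.5% of all genes. With a common RPKM sum they became 0 higher and 2 lower, while all genes went from 1751 higher and 1674 lower to 1243 and 2675. Against the alive library, 0 of 8 were past 2-fold in the spontaneous abortion, beside 7.67% higher and 5.71% lower over all genes. Lung markers summed to 7.77 (stillborn), 1.12 (spontaneous abortion) and 2.14 (alive). With enough reads, 3 of 4, SCGB1A1, SCGB3A2 and NKX2-1, were higher in the stillborn than in the alive library, beside 13.1% of all genes. For the spontaneous abortion, 0 of 2 were higher and 1, SCGB3A2, was lower, beside 7.67% and 5.71%. Erythroid, muscle and kidney markers summed to at most 26.7 in any library, and 4 of 9 erythroid and 4 of 10 muscle genes were at 0 in all 3. For stillborn over alive, 0 erythroid, 2 muscle and 3 kidney genes had enough reads. DES (muscle) and AQP2 (kidney) were lower and CUBN (kidney) higher, beside 12.5% and 13.1% of all genes. For spontaneous abortion over alive, 1, 2 and 3 had enough reads. LOC103247901 (erythroid) and CUBN were higher and TNNT1 (muscle) and AQP2 lower, beside 7.67% and 5.71%. Genes named from marker lists were chosen after their values were seen. The part of these RNAs in the results for the IGF genes was not tested.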

How the data were processed

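Per the labels' protocols, cell-free RNA was amplified by single-primer isothermal amplification and sequenced on a HiSeq2500. Per the submitters' processing notes, bcl2fastq 2.17, STAR and HTSeq were used. For other versions, the genome build, the annotation, strand and the RPKM step, nothing was found in the labels. The authors deposited RPKM values, 1 per gene and library.

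Library totals and reads were solved in Python 3.11.15 (numpy 2.4.6, scipy 1.17.1) as the numbers that make reads and gene lengths whole within the printed digits. This held for 23150 of 23276 genes above 0, or 99.46%, and their reads add up to 95.04% to 95.88% of the totals. The steps were tested on simulated data. TMM factors were 0.937 (stillborn), 1.02 (spontaneous abortion) and 1.05 (alive). A library at 0 reads was taken at 3. The labels name no molecular identifiers, so intervals cover counting error only. Labels do not say whether the samples came from separate dams. The losses were not pooled.

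Members and lists were chosen with earlier results of these data known. Named were all members and, per list, the 2 genes with the highest mean RPKM and up to 3 past 2-fold the same way in both losses. Some genes that this rule names are not reported here. RLN1, PDPK1, TUT4 and CARS1 were not matched by name on the pathway lists. Counts on marker lists used the same rule. No sequences are printed.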

Additional observations from a re-analysis of the deposited data

How the results depend on the processing

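With a limit of 4-fold, members past it numbered 1 for stillborn over alive, pathway genes 4, 3 and 3, and all genes 1063, 523 and 617, in the order stillborn over alive, spontaneous abortion over alive and stillborn over spontaneous abortion. With at least 10 reads, or with no minimum, 4 members were past 2-fold for stillborn over alive in place of 3, and 2 for stillborn over spontaneous abortion in place of 1, IGF1 being the addition in both. All genes then numbered 4626 and 5049 in place of 3425 for stillborn over alive. For spontaneous abortion over alive they numbered 2878 and 3130 in place of 1839, and between the losses 3061 and 3364 in place of 2071. The numbers of genes tested at these minimums are not given here, so no share of all genes stands beside these member counts. With a common RPKM sum, with or without IGF2 and H19, 20 pathway genes in place of 12 were past 2-fold between the losses, 4 higher and 16 lower in place of 4 and 8. Other scalings moved the all-gene median log2 ratio of stillborn over alive from -0.02 to as low as -0.31, and all-gene calls between the losses from 1036 higher and 1035 lower to 702 and 1974, or 874 and 1314 with total assigned reads, which for stillborn over alive gave 1438 and 2144. Directions turned for H19 between the losses (0.949 and 0.957 with the common sum and the sum without the pair), for IGF2BP2 there (0.884 and 0.892), and for IGF2BP3 in spontaneous abortion over alive (1.04 with the sum without the pair). Of 96 member ratios under 4 other scalings, 47 stayed within their counting interval, 44 left it without turning and 5 left it and turned. Within its interval, the ratio of IGF2BP3 between the losses also crossed 1, from 0.989 to 1.0005 with median-of-ratios. The cause was not tested.

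IGF2 and H19 together held 16.9% (stillborn), 16.2% (spontaneous abortion) and 12.2% (alive) of the summed RPKM. Relative to all other genes this was 20.4% (stillborn), 19.4% (spontaneous abortion) and 13.96% (alive), and of assigned reads, chosen after seeing the data, 15.2% (stillborn), 12.2% (spontaneous abortion) and 9.28% (alive). All alternatives for pathway and marker lists were also chosen after seeing the data. Within the distance of 0.1 lay 80 genes for IGF2 and 276 for H19 at a minimum mean RPKM of 1. Thinning every library to the smallest total left the member counts at 3, 0 and 1. No paired analysis was possible because each status has 1 library. Depth limits IGF1, with 3 to 26 solved reads.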
